A study of Mus musculus with 12 samples.

Results

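The 6 transcription regulators named here of the podocyte were followed in glomeruli of mice with Alport syndrome (AS), namely Wt1, Tcf21, Lmx1b, Zhx2, Tead1 and Yap1. They were taken by gene symbol, and all 6 were found among the 27592 genes of the male tables and the 26048 genes of the female tables. AS mice lack the α5 chain of type IV collagen, a component of the glomerular basement membrane that is encoded on the X chromosome. The groups were male Col4a5-/- mice (B6.Cg-Col4a5 tm1Yseg/J, mAS), male C57BL/6J mice (mWT), heterozygous Col4a5+/- females of the mutant strain (fASht) and C57BL/6J females (fWT). Every sample was labelled 3.5 months old, while the study's supplement gives a slightly higher age for the male mice. RNA came from whole glomeruli freed from the kidney by collagenase and sieving, so each library mixes podocytes with endothelial, mesangial and remaining tubular cells. There were 3 samples listed per group, but the third fWT library repeated the first in all 20971 genes above 0 (tolerance 1e-06) and was counted once, which left 11 libraries and an fWT group of 2.

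Podocytes are the epithelial cells that wrap the glomerular capillaries, and their foot processes are joined by the slit diaphragm. WT1 is a zinc finger protein required to form the kidney and to maintain the mature podocyte, where it binds many genes of the slit diaphragm and cytoskeleton. TCF21 is a basic helix-loop-helix factor and LMX1B a LIM homeodomain factor, and loss of either disturbs podocyte differentiation in mice. ZHX2 is a zinc finger and homeobox repressor best known for silencing alpha-fetoprotein in the postnatal liver. YAP1 is the coactivator restrained by the Hippo kinases, and TEAD1 is one of the DNA-binding proteins through which it acts.

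The deposited values are gene counts put on a common scale by the authors with the TMM method (trimmed mean of M-values) and called TMM values here, and they summed to between 14242206 and 23182937 per distinct library. Read depth is therefore not known, and precision rests on the spread between libraries. The Col4a5 transcript checked the labels, at 571.5 to 726.5 in mAS against 1209 to 1855 in mWT libraries, and at 1187 to 1330 in fASht against 1752 and 2329 in fWT libraries. Of the podocyte markers, a list of 17 structural and surface genes without transcription factors, none was at 0 in any library. In males 12 of the 17 podocyte markers rose, with summed TMM values of 429020 to 548330 in mAS against 198640 to 303940 in mWT libraries. All 16 proximal tubule markers fell, with sums of 42477 to 100920 in mAS against 263950 to 438720 in mWT libraries and none at 0, and 9 of 12 glomerular endothelial markers rose, with sums of 136220 to 195140 in mAS against 73113 to 128060 in mWT libraries. Parietal epithelial (5 of 6) and loop and distal tubule markers (6 of 10) fell, and fibroblast (4 of 6 tested) and lymphocyte markers (4 of 8) rose. The part of these shifts in the male results was not tested. In females no podocyte, endothelial or proximal tubule marker passed, but 2 of 10 loop and distal tubule markers and 1 of 6 fibroblast markers rose, and the loop and distal tubule sums were 60055 to 80924 in fASht against 21624 and 35565 in fWT libraries, whose part in the female results was not tested. In their column headers the fASht libraries carried another code (SE6183) than the fWT libraries (SE5411). What the code marks is not stated, and a batch that follows it cannot be told apart from genotype there.

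In male AS glomeruli Lmx1b and Tcf21 rose by about the same amount and no member fell on the TMM scale. With libraries scaled to equal podocyte markers neither rose and 3 other members fell, where 67.1% of all genes were called lower. The difference was tested with limma on log2(value + 1 CPM) over all expressed genes, and a gene was called at a Benjamini-Hochberg adjusted p below 0.05. By this test 2 of the 6 members were called, set against 35.5% of the 15863 genes tested, and both were higher (16.6% of all genes) and none lower (18.9%). Wt1 and Yap1 missed the threshold although every mAS library lay above every mWT library, a separation that 4 of 6 members showed in this direction and that 26% of all genes tested showed, with 27.2% apart in the other direction and 53.1% in either. Zhx2 and Tead1 gave nearly the same values in both groups. The median log2 fold change of the members was 0.42, beside 0.00 over all genes tested.

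Lmx1b (GRCm38 chr2:33560965-33640511, minus strand) had TMM values of 1490, 2002 and 1648 in mAS libraries, against 999.96, 1158 and 705 in mWT libraries. The groups did not overlap, and the lowest mAS library stood well above the highest mWT library. Its log2 fold change was 0.85 (SE 0.20, adjusted p = 0.0162 by limma), or 1.80-fold. Tcf21 (chr10:22817281-22820174, minus strand) had 1653, 2206 and 2072 in mAS libraries, against 829, 1617 and 864 in mWT libraries. Here the groups were separated only narrowly, because the second mWT library reached nearly the lowest mAS value. The log2 fold change of Tcf21 was 0.89 (SE 0.26, adjusted p = 0.0310 by limma), or 1.85-fold. The antisense gene Gm10824, which overlaps Tcf21 on the other strand, was at 17.04 to 19.8 in mAS against 6.06 to 21.9 in mWT libraries, and whether reads were counted by strand is not given in the sources used here.

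Both calls depended on single libraries. Lmx1b missed the threshold when mWT replicate 1 (adjusted p = 0.0506 by limma) or mAS replicate 3 (0.0521) was left out, and Tcf21 missed it without mWT replicate 1 (0.108), mWT replicate 3 (0.101), mAS replicate 2 (0.0773) or mAS replicate 3 (0.0959) and when genes of low value were kept (0.0645). When the average level of the proximal tubule list entered the fit as a covariate, which itself separated the groups at 10.4 to 11.7 in mAS against 13.1 to 13.9 in mWT libraries on the log2 scale, neither gene was called, with log2 fold changes of -0.15 for Lmx1b and -0.19 for Tcf21.

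The proximal promoters of Lmx1b, Tcf21 and Yap1 are shown because these 3 members had the largest log2 fold changes in males, and RefSeq (GRCm38.p6) gave a 300-base window, from 250 bases before to 50 after the RefSeq gene start, for just these 3 of the 6 members. RefSeq starts Lmx1b further upstream than the GENCODE position given above, so the Lmx1b window lies wholly before that position. Capitals mark CANNTG, the general E-box of basic helix-loop-helix proteins, the class of TCF21, and GGAATG, the word read by TEAD proteins. Both were searched on both strands and did not overlap each other in these windows.
Lmx1b promoter, chr2:33641049-33641348, minus strand: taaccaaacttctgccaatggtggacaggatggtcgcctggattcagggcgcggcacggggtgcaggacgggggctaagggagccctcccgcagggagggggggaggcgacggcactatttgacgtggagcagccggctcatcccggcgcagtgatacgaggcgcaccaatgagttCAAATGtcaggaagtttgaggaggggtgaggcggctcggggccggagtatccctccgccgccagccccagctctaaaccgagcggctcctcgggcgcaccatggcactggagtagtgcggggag
Tcf21 promoter, chr10:22820094-22820393, minus strand: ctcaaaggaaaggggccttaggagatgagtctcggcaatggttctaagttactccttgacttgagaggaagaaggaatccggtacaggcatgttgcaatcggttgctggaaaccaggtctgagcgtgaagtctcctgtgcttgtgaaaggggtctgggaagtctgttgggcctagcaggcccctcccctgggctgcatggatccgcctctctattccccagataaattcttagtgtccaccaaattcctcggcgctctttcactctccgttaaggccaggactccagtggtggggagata
Yap1 promoter, chr9:8004547-8004846, minus strand: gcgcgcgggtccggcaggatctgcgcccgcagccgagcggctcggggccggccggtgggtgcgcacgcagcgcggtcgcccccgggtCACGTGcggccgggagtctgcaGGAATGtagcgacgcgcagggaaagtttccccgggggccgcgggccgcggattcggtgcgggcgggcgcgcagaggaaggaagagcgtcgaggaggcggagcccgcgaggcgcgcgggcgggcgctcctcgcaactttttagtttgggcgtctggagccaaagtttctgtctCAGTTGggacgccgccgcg
The Lmx1b window held 1 E-box (CAAATG) 74 bases before the RefSeq start, and the Tcf21 window held neither word. In the Yap1 window GGAATG lay 141 bases before the start, between E-boxes at 163 bases before (CACGTG) and 32 bases after it. Among 32851 promoters of this length 72.3% held CANNTG and 14.7% held GGAATG. The E-box core CAGCTG (16.3% of promoters), the homeodomain word TAATTA (5.29%) and the WT1 and EGR word GCGTGGGNG (1.9%) were in none of the 3 windows. GC content was 65.7% for Lmx1b, 53.3% for Tcf21 and 74.0% for Yap1, beside a median of 52.7%.

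Wt1 (chr2:105126529-105173616, plus strand) had TMM values of 5711, 7192 and 5850 in mAS libraries, against 5525, 5398 and 3458 in mWT libraries. All mAS libraries lay above all mWT libraries, but the first mAS library exceeded the highest mWT library by little. The log2 fold change was 0.41 (SE 0.21, 95% interval -0.08 to 0.89, adjusted p = 0.159 by limma), so a rise was not shown. The noncoding gene Wt1os starts 18 bases away on the opposite strand and does not overlap Wt1. Wt1os had 188, 261 and 191 in mAS against 145, 152 and 92.1 in mWT libraries, and it rose by a log2 fold change of 0.66 (SE 0.22, adjusted p = 0.0470 by limma).

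Yap1 (chr9:7931999-8004596, minus strand) had TMM values of 2961, 3090 and 3194 in mAS libraries, against 1776, 2757 and 2413 in mWT libraries. The mAS libraries agreed closely with one another, while the mWT libraries spread widely below them. Its log2 fold change was 0.43 (SE 0.17, 95% interval 0.04 to 0.82, adjusted p = 0.0794 by limma). It passed the threshold under quantile normalization (0.58, adjusted p = 0.0333), with both sexes in one fit (adjusted p = 0.0402) and without mWT replicate 2 (0.57, adjusted p = 0.0321). Tead1 (chr7:112679318-112906807, plus strand) had 2860, 2970 and 3026 in mAS libraries, against 3111, 2591 and 3073 in mWT libraries. The groups overlapped, and the log2 fold change of 0.02 had a 95% interval of -0.26 to 0.30 (adjusted p = 0.922 by limma). Zhx2 (chr15:57694665-57839832, plus strand) had 635, 742 and 670 in mAS libraries, against 743, 632 and 613 in mWT libraries. These groups overlapped as well, with a log2 fold change of 0.04 and a 95% interval of -0.25 to 0.34 (adjusted p = 0.809 by limma).

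**Figure D1:**
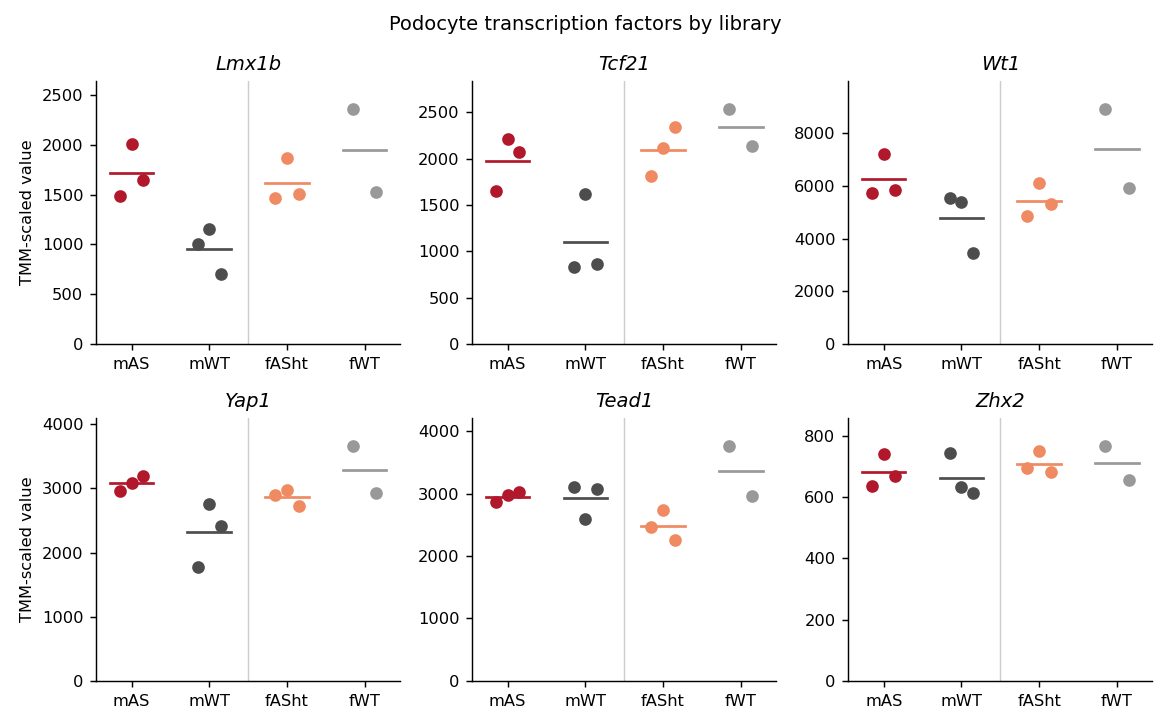
TMM-scaled value of each member (vertical axis, starting at 0) in every distinct library of the mAS, mWT, fASht and fWT groups; points are libraries and lines are group means. Lmx1b, Tcf21, Wt1 and Yap1 were higher in every mAS than in every mWT library on this scale, an order that libraries scaled to equal podocyte markers do not keep, and Tead1 was lower in every fASht than in every fWT library.

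Since the study centres on miR-93-5p, the members were searched for the word that pairs with its seed. The mature miRNA, encoded at chr5:138165574-138165596 on the minus strand (RefSeq, GRCm38.p6), is given with its seed, bases 2 to 8, in capitals.
mmu-miR-93-5p: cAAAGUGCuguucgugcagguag
The matching word GCACTTT was found in the longest annotated 3′ UTR (GENCODE M21) of Zhx2 and of Tead1, once in each, and in none of Wt1, Tcf21, Lmx1b and Yap1. The 30 bases around each are given with the word in capitals.
Zhx2, chr15:57839570-57839599, plus strand: gatacctgagtGCACTTTtttttttttttt
Tead1, chr7:112899958-112899987, plus strand: aagcctcagtgGCACTTTacacatatattc
In Tead1 the word was followed by an A. The 3′ UTRs were 1246 bases long for Zhx2 and 8147 for Tead1, and among genes within 10% of these lengths the word was present in 11.7% and 42.0%. The members with the word were those with the smallest log2 fold changes in males on the TMM scale, but whether word and fold change are linked was not tested. A word match does not show a site in use.

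Because the podocyte markers rose in male AS glomeruli, each member was also expressed relative to them, as its log2 value minus the mean log2 of the 17 markers in the same library. In bulk RNA more podocytes and more podocyte RNA per cell cannot be told apart. On this scale Lmx1b differed by -0.12 between groups, at -3.19, -3.10 and -3.12 in mAS against -2.91, -2.99 and -3.16 in mWT libraries, and Tcf21 by -0.08, at -3.04, -2.96 and -2.79 in mAS against -3.17, -2.52 and -2.87 in mWT libraries. The groups overlapped for both genes, so the rise of Lmx1b and Tcf21 was about as large as that of the markers. Wt1 was lower relative to the markers, at -1.26, -1.27 and -1.30 in mAS against -0.46, -0.79 and -0.89 in mWT libraries, a difference of -0.56. The groups of Wt1 did not overlap, and its 3 mAS values were almost identical. Yap1 differed by -0.54, Zhx2 by -0.92 and Tead1 by -0.95, each with groups that did not overlap. The marker mean itself was 13.7 to 14.1 in mAS against 12.7 to 13.2 in mWT libraries. A gene that was level on the TMM scale, as Zhx2 and Tead1 were, therefore came out lower here by construction. How many of all genes lay apart on this scale was not counted. The exact two-sided permutation p was 0.1 for Wt1, Yap1, Zhx2 and Tead1, the smallest that 3 against 3 libraries allow, and 0.2 after Benjamini-Hochberg adjustment over the 12 relations (6 members in 2 sexes).

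Rescaling all male libraries to the same podocyte marker mean moved the median log2 fold change of all genes to -0.83, and 68.5% of genes were then called, 67.1% as lower. In that fit Wt1 (-0.56, SE 0.21, adjusted p = 0.0373 by limma), Zhx2 (-0.90, SE 0.22, adjusted p = 0.00491) and Tead1 (-0.94, SE 0.24, adjusted p = 0.0066) were called lower in mAS. Zhx2 and Tead1 thus lay close to the shift of all genes and Wt1 and Yap1 (-0.53, adjusted p = 0.0637) above it. Lmx1b (-0.10) and Tcf21 (-0.06) were not called, which leaves the direction of every member in males dependent on the scale. With equal column totals, the other scaling that moved the median of all genes by more than 0.1 (to 0.36), Wt1 (0.82, adjusted p = 0.0255) and Yap1 (0.85, adjusted p = 0.0220) were called higher together with Lmx1b (1.26) and Tcf21 (1.30).

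**Figure D2:**
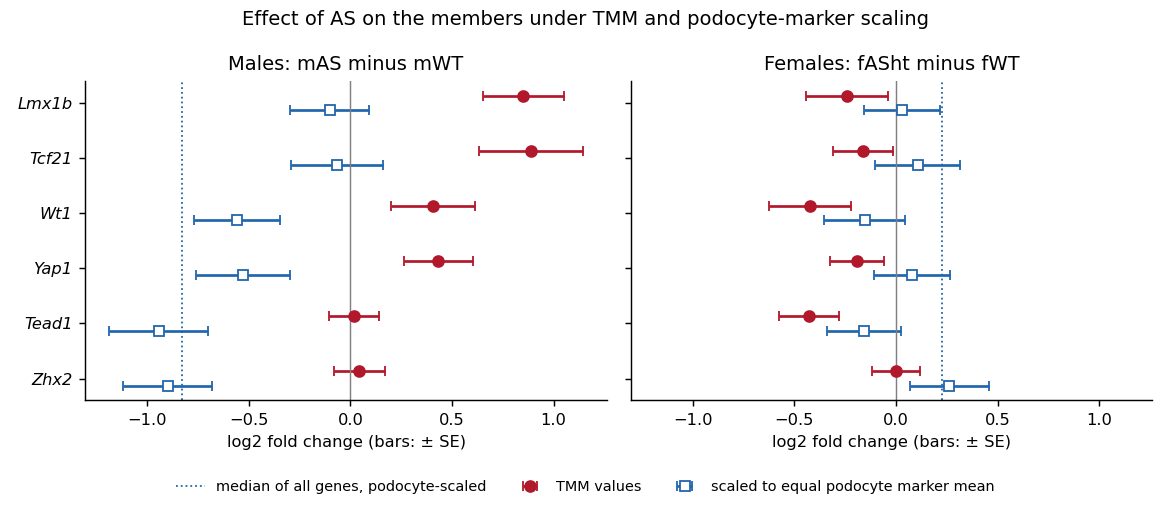
Log2 fold change of each member (horizontal axis, bars ± SE) for mAS minus mWT and for fASht minus fWT, from TMM values (filled circles) and after scaling libraries to an equal podocyte marker mean (open squares); the dotted line is the median of all genes after that scaling, -0.83 in males and 0.23 in females. In males every member moved to the negative side, with Lmx1b at -0.10 and Tcf21 at -0.06 closest to 0.

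**Figure D3:**
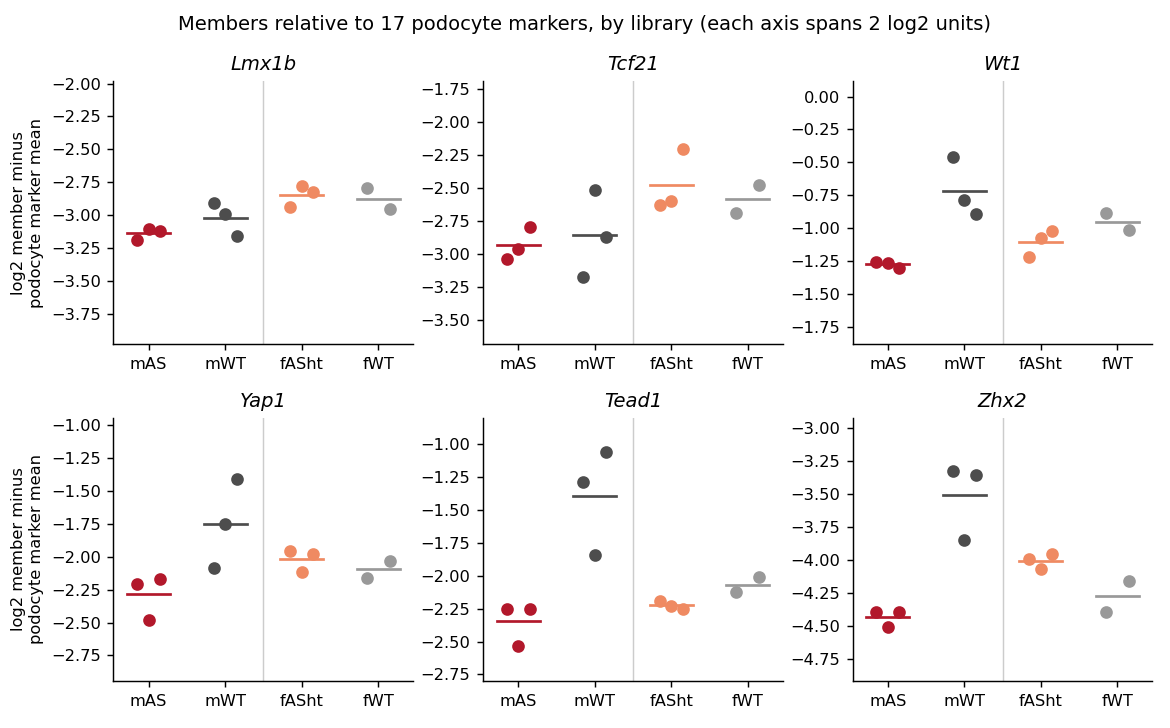
Log2 value of each member minus the mean log2 of 17 podocyte markers (vertical axis, each panel spanning the same range) in every distinct library; points are libraries and lines are group means. In males the mAS and mWT libraries overlapped for Lmx1b and Tcf21, while Wt1, Yap1, Tead1 and Zhx2 were lower in every mAS library. The marker mean was itself higher in every mAS than in every mWT library.

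In heterozygous females none of the 6 members passed the test, where 1.41% of 15785 genes did, 1.06% as higher and 0.348% as lower in fASht. At an unadjusted p below 0.05 the only member was Tead1. Wt1 had TMM values of 4856, 6118 and 5310 in fASht libraries, against 8899 and 5920 in fWT libraries, a log2 fold change of -0.42 (SE 0.20, adjusted p = 0.275 by limma). The fWT libraries of Wt1 lay far apart, and the groups overlapped. Tead1 had 2464, 2742 and 2254 in fASht libraries, against 3762 and 2964 in fWT libraries, a log2 fold change of -0.43 (SE 0.15, adjusted p = 0.166 by limma). It was the only member whose female groups did not overlap, which 21.2% of all genes tested showed in this direction, 19.2% in the other and 40.4% in either.

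Lmx1b in females had TMM values of 1462, 1869 and 1507 in fASht libraries, against 2356 and 1529 in fWT libraries, with a log2 fold change of -0.24 (adjusted p = 0.525 by limma). Tcf21 had 1812, 2118 and 2337 in fASht libraries, against 2532 and 2140 in fWT libraries, with -0.16 (adjusted p = 0.551 by limma). Yap1 had 2903, 2966 and 2725 in fASht libraries, against 3660 and 2924 in fWT libraries, with -0.19 (adjusted p = 0.438 by limma). For every member, Zhx2 among them, the first fWT library was the highest female library. Zhx2 had 694, 750 and 681 in fASht libraries, against 767 and 654 in fWT libraries, with a log2 fold change of 0.00 (adjusted p = 0.996 by limma). That first fWT library also had the highest podocyte marker sum, 518300, against 328280 to 393540 in fASht libraries and 372140 in the other fWT library, and its part in the result was not tested. Without fWT replicate 2, which leaves 1 fWT library assumed to vary like the fASht ones, Wt1 (-0.72, adjusted p = 0.0352 by limma) and Tead1 (-0.60, adjusted p = 0.0397) were called lower, and with the repeated library kept as a sample of its own Tead1 was called (-0.48, adjusted p = 0.0449), as it was with the proximal tubule covariate (-0.47, adjusted p = 0.0253).

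Relative to the podocyte markers the female differences were smaller than in males for Wt1 (-0.15), Tead1 (-0.16), Yap1 (0.08) and Zhx2 (0.27), although whether they differed between sexes on this scale was not tested. The groups did not overlap for Zhx2, which was higher in fASht libraries, and for Tead1, which was lower (exact two-sided permutation p = 0.1 for each, 0.2 adjusted over the 12 relations). How many of all genes lay apart on this scale was not counted in females either. Zhx2 was level on the TMM scale. Scaling to equal podocyte markers moved the female median of all genes to 0.23, near the 0.26 of Zhx2 in that fit. Wt1 was also lower in every fASht library, at -1.22, -1.07 and -1.02 in fASht against -0.89 and -1.02 in fWT libraries (exact two-sided permutation p = 0.2, adjusted p = 0.343), although its closest fASht and fWT libraries were nearly equal. Lmx1b (0.03) and Tcf21 (0.11) again overlapped.

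The AS effect differed between males and females for Lmx1b and Tcf21. The males lack Col4a5 and the females are heterozygous, so sex and allele dose cannot be told apart. The male minus the female log2 fold change was 1.09 for Lmx1b (SE 0.31, adjusted p = 0.0337 by limma) and 1.05 for Tcf21 (SE 0.34, adjusted p = 0.0472 by limma). Of 15473 genes tested for this difference 23.2% were called, 10.5% with the male log2 fold change above the female one. For Wt1 (0.83, adjusted p = 0.0749), Yap1 (0.62, adjusted p = 0.0691), Tead1 (0.44, adjusted p = 0.104) and Zhx2 (0.05, adjusted p = 0.865) the difference was not called. Tcf21 was not called without fWT replicate 2 (adjusted p = 0.0521 by limma), and neither Lmx1b nor Tcf21 was called when any of mAS replicates 2 and 3, mWT replicates 1 and 3, fASht replicates 1, 2 and 3 or fWT replicate 1 was left out (adjusted p up to 0.186 for Lmx1b and 0.203 for Tcf21), and the difference took the other sign with equal podocyte marker means (-0.13 and -0.17).

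Levels of different genes were compared as TMM value per kilobase of annotated exon. In mAS glomeruli the order was Wt1 (1009 ± 132, SD, n = 3), Tcf21 (842 ± 123), Lmx1b (351 ± 53.7), Yap1 (333 ± 12.6), Tead1 (218 ± 6.25) and Zhx2 (154 ± 12.3). Single libraries of the neighbours Wt1 and Tcf21 overlapped, as did those of Lmx1b and Yap1, while the other neighbours were apart. In mWT glomeruli the level per kilobase was 774 ± 187 for Wt1, 470 ± 189 for Tcf21, 250 ± 53.8 for Yap1, 216 ± 21.3 for Tead1, 196 ± 47.1 for Lmx1b and 149 ± 15.8 for Zhx2 (SD, n = 3), and the libraries of all neighbours in this order overlapped except those of Tcf21 (353 to 688) and Yap1 (192 to 298). Lmx1b thus stood above Yap1 and Tead1 in mAS glomeruli and below both in mWT glomeruli by mean. In fASht glomeruli Tcf21 (889 ± 112) and Wt1 (876 ± 103) overlapped at the top, followed by Lmx1b (330 ± 45.7), Yap1 (309 ± 13.5), Tead1 (183 ± 18.1) and Zhx2 (160 ± 8.30), and the neighbours Lmx1b and Yap1 and the neighbours Tead1 and Zhx2 overlapped as well. In fWT glomeruli the means per kilobase were 1196 for Wt1, 995 for Tcf21, 398 for Lmx1b, 356 for Yap1, 248 for Tead1 and 160 for Zhx2 (n = 2). The exon length counts all annotated isoforms, so a gene with long unused exons is placed too low.

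Wt1, Tcf21, Lmx1b and Yap1 varied with the podocyte markers, and inversely with the proximal tubule markers, more closely than Zhx2 and Tead1 did. Likeness was described by Pearson's r of log2 values over the 11 libraries after removing each sex's mean, with no test. It was taken among 11291 genes with a mean of at least 5 CPM over the libraries of each sex. With the podocyte marker mean r was 0.98 for Lmx1b, 0.89 for Tcf21, 0.81 for Wt1, 0.80 for Yap1, 0.41 for Zhx2 and 0.27 for Tead1. With the proximal tubule marker mean it was -0.90 for Lmx1b, -0.84 for Tcf21, -0.65 for Wt1, -0.72 for Yap1, -0.41 for Zhx2 and -0.05 for Tead1. Between members it was highest for Wt1 and Lmx1b (0.89), Tcf21 and Lmx1b (0.87) and Tcf21 and Yap1 (0.85). It was lowest for Zhx2 and Yap1 (-0.03). The points share libraries and the male libraries fall into their 2 groups, so these values describe co-variation only. For Wt1 the most similar genes were Pdpn (podoplanin, a podocyte membrane glycoprotein, 0.98), Ubtf (0.97) and Coro2b (0.96). For Tcf21 they were Basp1 (0.99), Ddah2 (0.98) and Rcn2 (0.98). Basp1, which encodes a corepressor that binds WT1, was at 6.36 to 10.5 CPM in mAS against 1.48 to 5.05 CPM in mWT libraries. In males its mean reached the 5 CPM minimum only through the mAS libraries, so its r rests on the difference between the groups. For Lmx1b they were Golim4 (0.99), Sncaip (0.99) and Angptl2 (0.98). Yap1 was most like Phtf1, Lemd3 and Extl3 (0.98 each). Tead1 was most like Pdxdc1 (0.96), Smarca5 (0.95, an ATPase of chromatin remodelling complexes) and Samd5 (0.95). Zhx2 was most like Ebna1bp2 (0.96), Gm5898 (0.93) and Smarcd1 (0.92).

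Other podocyte transcription factors moved in both directions in male AS glomeruli, with 3 of 9 higher, 1 lower and 5 not called, and a median log2 fold change of 0.36 beside 0.00 for all genes. Here and in the lists that follow, 35.5% of all genes tested were called in males, 16.6% as higher and 18.9% as lower. With equal podocyte marker means only 226 of the 15863 genes tested in males were called higher and 67.1% lower. Without mWT replicate 2, 5 of the 9 were higher and 2 lower, and without mWT replicate 1, 2 were higher and none lower. The forkhead genes Foxc1 (1.00, adjusted p = 0.0123), Foxc2 (1.00, adjusted p = 0.0162) and Foxd2 (1.08, adjusted p = 0.0120 by limma) rose. Foxd2 had 771, 1080 and 968 in mAS against 346, 615 and 376 in mWT libraries, without overlap. Vdr, the vitamin D receptor, which proximal tubule cells also express strongly, fell by 1.18 on the log2 scale (adjusted p = 0.0111), with 2878, 1496 and 2152 in mAS against 5338, 3930 and 5182 in mWT libraries. With equal podocyte marker means none of the 9 was higher and 5 were lower, and in females none of the 9 passed.

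Of 12 podocyte genes known as WT1 targets, 7 rose in male AS glomeruli, none fell and 5 did not pass, with a median of 0.97. Nes, the intermediate filament nestin, led with a log2 fold change of 1.59 (adjusted p = 0.00660), followed by Nphs1 (1.503, adjusted p = 0.00549), which encodes nephrin of the slit diaphragm, Synpo (1.04, adjusted p = 0.0306), the actin-binding synaptopodin, and Foxc2. Nphs1 had 17742, 23760 and 17811 in mAS against 6294, 8819 and 5909 in mWT libraries, and its groups were far apart. Podxl (1.01, adjusted p = 0.0723 by limma), the sialomucin podocalyxin, was among those that did not pass. Many of these genes are also on the podocyte marker list, and with equal podocyte marker means 2 were higher, Nes (0.62) and Nphs1 (0.54), and 3 lower, with a median of 0.01. In females none of the 12 passed (median -0.27).

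Among 4 genes that need LMX1B in mice, Col4a3 (1.20, adjusted p = 0.00566) and Col4a4 (0.85, adjusted p = 0.00682 by limma) rose in males. They encode the α3 and α4 chains that assemble with the α5 chain missing in AS. The others did not pass, among them Cd2ap (0.29, adjusted p = 0.148), an adaptor of the slit diaphragm. With equal podocyte marker means none of the 4 was higher and 1 was lower, and in females none passed.

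Partners of the podocyte factors were counted in the same way. Of 5 WT1 partners and neighbours 3 rose in males, Basp1 (1.19, adjusted p = 0.0214), the LIM protein Wtip (1.02, adjusted p = 0.0312) and Wt1os, while Pawr (0.22) and Wtap (0.09) did not pass. Of the E proteins that pair with TCF21 and the LIM-binding cofactors of LMX1B, Tcf3 (0.73, adjusted p = 0.0229), Tcf4 (0.64, adjusted p = 0.0349) and Ldb1 (0.55, adjusted p = 0.0320 by limma) rose, and Ldb2 (0.72, adjusted p = 0.0606) and Tcf12 (0.25, adjusted p = 0.105) did not pass. With equal podocyte marker means no gene of either list was higher, and 2 WT1 partners and 1 of the cofactors were lower. In either list no gene was called when mAS replicate 2 or 3 or mWT replicate 1 or 3 was left out. No gene of these lists passed in females.

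Of 5 ZHX relatives and partners 2 were called in males, a share near that of all genes (35.5%), and both were partners. Nfya, a subunit of the NF-Y factor that ZHX proteins bind, rose by 0.85 (adjusted p = 0.00893) and Efnb1, the membrane ligand ephrin-B1, by 0.67 (adjusted p = 0.0384 by limma) on the log2 scale. The relatives of Zhx2 did not pass, with 0.11 for Zhx1 (adjusted p = 0.534) and -0.64 for Zhx3 (adjusted p = 0.0535). Zhx3 had 1338, 880 and 1029 in mAS against 1683, 1285 and 2143 in mWT libraries, overlapping narrowly. Only 1 of the 5 was called higher when mAS replicate 2 or 3 or mWT replicate 1 or 3 was left out, and 3 without mWT replicate 2. Of the genes that ZHX2 represses in mouse liver, Gpc3 (0.95, adjusted p = 0.00771 by limma) rose, and Afp (-0.33) and Lpl (-0.37) did not pass. H19 reached the minimum for testing only through the mAS libraries and is given without a test, with 17.8, 26.2 and 11.3 in mAS against 1.23, 5.77 and 6.06 in mWT libraries, and it was also higher in every fASht library (23.4, 8.17 and 18.3) than in the fWT libraries (3.02 and 4.52), where it was too low to be tested. With equal podocyte marker means no gene of either list was higher and 2 of each were lower.

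Relatives and regulators of TEAD1 and YAP1 were counted next. Of 6 tested TEAD and YAP relatives 3 rose, Tead4 (0.90, adjusted p = 0.00857) and the vestigial-like TEAD cofactors Vgll3 (0.95, adjusted p = 0.00570) and Vgll4 (0.91, adjusted p = 0.0113 by limma). Vgll3 had 380, 434 and 411 in mAS against 182, 231 and 199 in mWT libraries, and so its groups were well apart. Wwtr1, which encodes the YAP1 paralog TAZ, had a log2 fold change of -0.01 (adjusted p = 0.961). Of 17 Hippo kinases and adaptors 8 rose and 1 fell, led by the angiomotin relative Amotl2 (1.71, adjusted p = 0.00108), Frmd6 (1.64, adjusted p = 0.00617) and the kinase gene Lats2 (1.25, adjusted p = 0.00591), against Wwc1 (-1.34, adjusted p = 0.0267 by limma). Mob1b (-0.44) and Amot (0.42) did not pass. The number of these 17 called higher was 5 without mAS replicate 3 and between 6 and 9 without any other single male library, and Wwc1 was not called without mAS replicate 3, mWT replicate 1 or mWT replicate 3. Amotl2, Frmd6 and Lats2 belong to the inhibitory arm of the pathway, and Amotl2 and Lats2 are themselves YAP1 targets.

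Among 21 tested YAP and TEAD target genes 15 rose in male AS glomeruli, 1 fell and 5 did not pass, with a median of 0.75, where 16.6% of all genes rose and 18.9% fell. Fibroblast markers moved with them, with sums of 7780 to 10700 in mAS against 2240 to 4123 in mWT libraries. No fibroblast marker was at 0 in mAS, but up to 2 were in mWT libraries. In the same comparison 12 of 17 podocyte and 9 of 12 glomerular endothelial markers also rose, and all 16 proximal tubule markers fell. The part of these marker shifts in the result was not tested. Ccn2, which encodes the matricellular protein CTGF, had 21784, 30735 and 26528 in mAS against 6718, 9015 and 5155 in mWT libraries, a log2 fold change of 1.94 (SE 0.24, adjusted p = 0.00421 by limma). Every mAS library was more than 2 times the highest mWT library. Ankrd1, a muscle ankyrin repeat protein, rose by 1.51 (adjusted p = 0.00392), Amotl2 had 4442, 4741 and 4852 in mAS against 1384, 1512 and 1361 in mWT libraries, and Fjx1 fell by 0.86 on the log2 scale (adjusted p = 0.0183). Tgfb2 (0.94, adjusted p = 0.0542) and Nt5e (0.28, adjusted p = 0.104 by limma) did not pass. The number called higher was 9 without mAS replicate 3 or mWT replicate 1, 10 without mWT replicate 3 and between 11 and 16 without any other single male library, and Fjx1 was not called without mWT replicate 1 or 3. With equal podocyte marker means 3 were higher, Ccn2 (0.97, adjusted p = 0.00374), Amotl2 (0.75, adjusted p = 0.00941) and Ankrd1 (0.70, adjusted p = 0.0176), and 5 lower, with a median of -0.21. The same scaling left 2 Hippo kinases and adaptors higher, Amotl2 and Frmd6 (0.71, adjusted p = 0.0225), and 8 lower, and none of the TEAD and YAP relatives higher and 2 lower.

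In heterozygous females a single YAP and TEAD target passed, Ccn1, which encodes the matricellular protein CYR61. It had 3097, 2907 and 2822 in fASht libraries, against 842 and 746 in fWT libraries, a log2 fold change of 1.87 (SE 0.11, adjusted p = 0.00304 by limma), without overlap. In males Ccn1 had 1383, 1367 and 924 in mAS against 758, 786 and 705 in mWT libraries, a smaller rise of 0.67 (adjusted p = 0.0205). The difference of the 2 effects was -1.20 (SE 0.22, adjusted p = 0.0197 by limma). Ccn2 showed the opposite order, with 15079, 13314 and 17712 in fASht against 20751 and 20100 in fWT libraries (-0.42, adjusted p = 0.249) and a difference between the sexes of 2.36 (SE 0.32, adjusted p = 0.0148). Without fWT replicate 1 neither difference was called, nor that of any gene (3634 genes at an unadjusted p below 0.05 by limma). Rbms3 (-0.67, adjusted p = 0.0865) and Axl (-0.61, adjusted p = 0.0811) did not pass in females, and the female median over the list was -0.23. Since all fASht libraries carry one header code and all fWT libraries another, a batch that follows the code and genotype cannot be told apart for Ccn1 either.

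**Figure D4:**
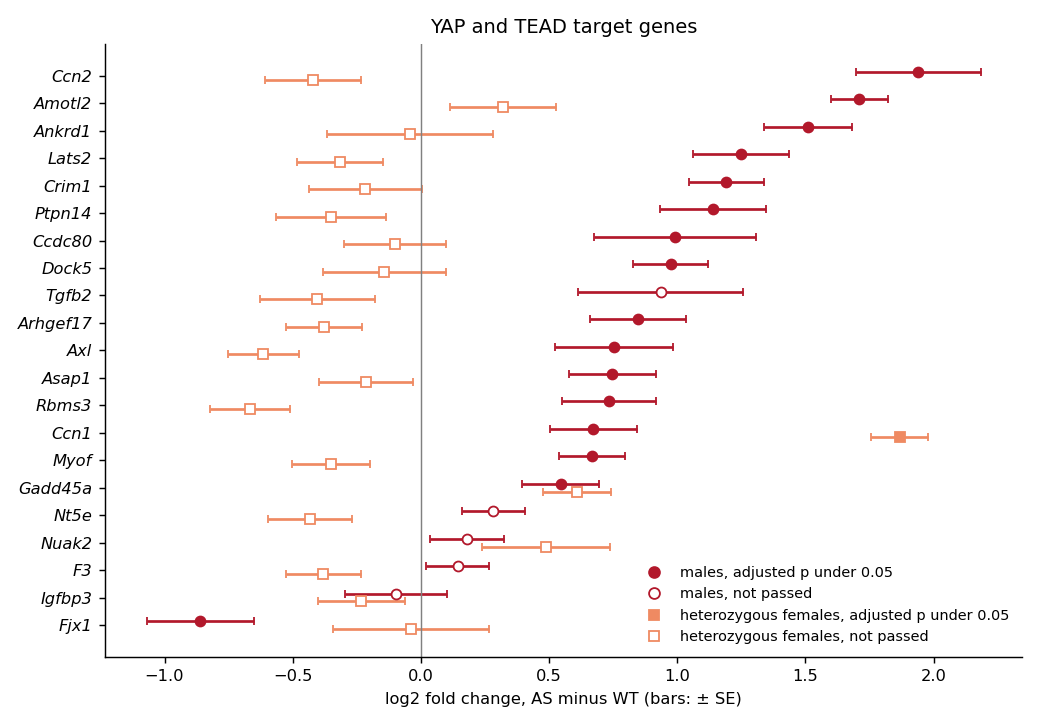
Log2 fold change (horizontal axis, bars ± SE) of 21 YAP and TEAD target genes, ordered by the male value, for mAS minus mWT (circles) and fASht minus fWT (squares), filled where the adjusted p was below 0.05, on TMM values. In males 15 genes were called higher, from Ccn2 at 1.94 down, and in females Ccn1 alone passed, at 1.87. With equal podocyte marker means the male count was 3, beside 226 of all 15863 genes tested.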

How the data were processed

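RNA of glomeruli was sequenced from polyA-selected libraries. Per the study's methods and labels, the authors trimmed reads with cutadapt, aligned them to mm10 with STAR and counted genes in Partek, with versions not given in the sources used here. The deposited signal values are gene counts scaled by TMM by the authors. They are fractional, so no count model was used, and male and female tables were tested apart. A gene was kept if 3 or more libraries reached 0.5 CPM (of the column sum), and limma 3.58.1 (R 4.3.3) was run on log2(value + 1 CPM), with Benjamini-Hochberg adjustment over all genes; fold changes on this scale understate low genes. The difference between the sexes was tested as an interaction. The limma step was tested on simulated data. The members and gene lists were chosen with earlier results of these data known. Named genes were the members, any gene of lists of 9 or fewer, and of longer lists up to 4 called and 2 not called genes of largest change, with the 3 most similar genes per member; Fjx1, the only target that fell, is named outside this rule. The study isolated glomeruli per mouse and describes 3 mice per male group; the labels number the female samples without naming animals, so their spread may be technical. Alternatives were other pseudocounts, filters and scalings, marker covariates, a replicate block and leaving out each library. Some list genes and an alternative marker list are not reported here.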

Additional observations from a re-analysis of the deposited data

Results flagged for a closer look

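Of 62 named genes, 30 had an AS effect that differed between the sexes by the interaction test of limma (adjusted p between 0.0148 and 0.0485), 27 with the larger value in males and 3 with the larger value in females, where 23.2% of all genes were called. Genes of the longer lists were named for a large change in males or in females, so the share of named genes cannot be set against that of all genes. Without fWT replicate 1 none was called, and with equal podocyte marker means no gene of 9 of the 10 lists, and 1 YAP and TEAD target, was called with the larger value in males. Values are the male minus the female log2 fold change. Among the members these were Lmx1b (1.09) and Tcf21 (1.05). Of the other podocyte transcription factors they were Foxc1 (1.20), Foxc2 (1.36), Foxd2 (1.51), Nr3c1 (0.61) and Vdr (-1.55). Of the WT1 and LMX1B target genes and the partner genes they were Nes (1.87), Nphs1 (1.45), Synpo (1.63), Col4a3 (0.96), Tcf4 (1.11), Nfya (0.85), Efnb1 (1.01), Enpep (0.91) and Gpc3 (1.30). Of the TEAD relatives and Hippo genes they were Tead4 (0.91), Vgll3 (1.44), Vgll4 (0.84), Amotl2 (1.39), Frmd6 (1.93), Wwc1 (-1.58), Lats2 (1.56) and Amot (0.91). Of the YAP and TEAD target genes they were Ccn2 (2.36), Ankrd1 (1.55), Nt5e (0.71), Ccn1 (-1.20), Rbms3 (1.40) and Axl (1.37). In males all proximal tubule markers, 5 of 6 parietal epithelial and 6 of 10 loop and distal tubule markers fell, and 12 of 17 podocyte, 4 of 6 fibroblast and 4 of 8 lymphocyte markers rose, while in females 2 loop and distal tubule markers and 1 fibroblast marker rose. Sex and allele dose, and in females header code and genotype, cannot be told apart. The part of the markers in these differences was not tested.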

How the results depend on the processing

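The numbers that follow are genes called, then log2 fold changes. In males 5636 genes were called, against 10869 with equal podocyte marker means, 0 with the proximal tubule covariate (806 at an unadjusted p below 0.05) and 2485 to 5873 without single libraries. Members called in males numbered 2, against 1 with no filter, 4 with equal column totals, 3 (all lower) with equal podocyte marker means, 0 with the covariate and 0 to 3 without single libraries. In females 222 genes were called, against 8 with no filter, 146 with a filter at 2 CPM, 676 with equal column totals, 2572 with the covariate, 2523 with the repeated library kept and 4 to 1803 without single libraries, and members called numbered 0, against 1 with the covariate, 1 with the repeated library and 0 to 2 without single libraries. For the difference 3593 genes were called, against 2016 with no filter, 11077 with equal podocyte marker means, 0 with the covariate (753 at an unadjusted p below 0.05), 5714 with the repeated library and 0 to 4835 without single libraries, and members called numbered 2, against 0 with no filter, 1 with quantile normalization, 1 with equal column totals, 2 (both lower) with equal podocyte marker means, 0 with the covariate, 5 with the repeated library and 0 to 4 without single libraries. Equal podocyte marker means turned the male values to -0.56 for Wt1, -0.065 for Tcf21, -0.10 for Lmx1b, -0.90 for Zhx2, -0.94 for Tead1 and -0.53 for Yap1, the female values to 0.11 for Tcf21, 0.028 for Lmx1b, 0.26 for Zhx2 and 0.079 for Yap1, and the difference to -0.41 for Wt1, -0.17 for Tcf21, -0.13 for Lmx1b, -1.16 for Zhx2, -0.79 for Tead1 and -0.61 for Yap1. The covariate turned the male values to -0.47 for Wt1, -0.19 for Tcf21, -0.15 for Lmx1b and -0.23 for Zhx2, and the difference to -0.081 for Wt1 and -0.28 for Zhx2. Female Zhx2 was 0.058 under quantile normalization and 0.15 with equal column totals. Without single libraries the sign varied for male Zhx2 (-0.017 to 0.127) and Tead1 (-0.067 to 0.064), female Lmx1b (-0.55 to 0.068) and Zhx2 (-0.11 to 0.11), and the difference of Zhx2 (-0.067 to 0.157). Relative to the podocyte markers it varied for Tcf21 in males (-0.236 to 0.090) and females (-0.028 to 0.217) and for Lmx1b in females (-0.050 to 0.110). Of 336 member values under alternatives 251 kept their direction and side of the threshold. The cause of these changes was not tested. Read depth is not known, and 2 fWT libraries limit the female comparison.

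Same-numbered libraries did not deviate together in every pair (r of 0.05, 0.52 and 0.06 in males, 0.26 and -0.05 in females). Deviations from the mean of so few libraries offset one another, so these values cannot settle whether the numbers pair the samples. With a replicate block 6407 genes and 3 members were called in males, 881 genes and 0 members in females and 383 genes and 0 members for the difference, female Zhx2 turned to 0.026, and Yap1 was called in males (adjusted p = 0.0436 by limma).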
